A study of Mus musculus with 6 samples.

Results

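Ribosomal protein mRNAs were measured in whole hearts of DNMTs-Tg and wild-type mice at 8 weeks of age, with 1 array per mouse and 3 mice per genotype. The genes were all those whose single platform symbol starts with Rpl or Rps followed by a digit, without S6 kinases and pseudogene symbols, which gave 102 of the 45101 probe sets and 47 of the 18193 genes with a symbol. DNMTs-Tg mice (replicates 1, 5 and 6) express DNMT3A2, an isoform of a de novo DNA methyltransferase, together with its partner DNMT3L in broad somatic cells throughout life. They were bred from females of an FVB line with the germ-cell Cre driver Ddx4-cre and males that carried the flox construct, and the promoter of the transgenes is not in the labels. The labels of the wild-type mice (replicates 1, 4 and 6) do not give their strain or litter. The study looked in these hearts for genes that the ectopic enzymes might silence. DNA methylation was not analysed here.

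The cytosolic ribosome has a small subunit, which decodes mRNA, and a large subunit, which joins amino acids. Its proteins are made in near-equal amounts, and their mRNAs mostly begin with a tract of C and T bases, the 5′ terminal oligopyrimidine (TOP) motif, through which mTORC1 and LARP1 set their translation. Some proteins have paralogues with narrower expression, among them RPL3L, which takes the place of RPL3 in ribosomes of adult heart and skeletal muscle. Many ribosomal protein genes also have near-identical processed pseudogenes, so a short array probe can read more than 1 locus.

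The transgene label held on every array, with Dnmt3l signals of 12.30, 12.38 and 12.19 (log2) in DNMTs-Tg replicates 1, 5 and 6 and 5.28, 5.48 and 5.17 in wild-type replicates 1, 4 and 6. Sex-linked RNA went against the sex label on 4 of the 6 arrays. The Y-linked gene Eif2s3y stood between 9.41 and 9.52 on 5 arrays and at 3.32 on that of wild-type replicate 4, the 1 array with Xist (10.1, against 4.52 to 4.96), while the labels call all mice female but wild-type replicate 6. Without wild-type replicate 4, the only array with Xist, 41 of the 45 genes tested below lay above 0 in DNMTs-Tg hearts, with a median log2 difference of 0.28. DNMTs-Tg replicate 1 had the highest macrophage and fibroblast markers, as set beside the results. All 12 cardiomyocyte markers were measured and 0 passed the test used below (1 had an unadjusted p under 0.05). Their median log2 difference was -0.11, with 3 above 0. Without overlap of the groups, 6 markers were lower and 1 was higher, against 2396 and 2364 of all 13634 genes tested. The mean of the markers per array overlapped between the groups. It lay between -0.09 and 0.07 in DNMTs-Tg and between -0.14 and 0.07 in wild-type hearts. In whole tissue, fewer cells of a type and less RNA per cell cannot be told apart.

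Promoters of some of the genes named below are printed here, each with a C and T tract near the annotated start. Its place alone does not make such a tract a TOP motif. Other named genes, such as Rps25 and Rps4x, had no such tract. The lines also show how few CG dinucleotides the muscle paralogue Rpl3l has there. Each line runs from 80 bases before the annotated start to 20 after it (RefSeq, GRCm38.p6, 5′ to 3′), and capitals mark the first C followed by at least 4 bases that are each C or T, where one begins within 10 bases of the start. Rps6, Rpl35, Rpl19 and Rps27l were higher in DNMTs-Tg hearts and Rpl22l1 and Rpl3l had lower signals. The marked tracts of Rpl19 and Rps27l lie wholly before the annotated start, and that of Rpl22l1 begins at base 4 after it. The windows lie at chr4:86857348-86857447, minus strand for Rps6, chr2:39005112-39005211, minus strand for Rpl35, chr11:98026630-98026729, plus strand for Rpl19, chr9:66946006-66946105, plus strand for Rps27l, chr3:28805428-28805527, plus strand for Rpl22l1 and chr17:24727746-24727845, plus strand for Rpl3l.
Rps6: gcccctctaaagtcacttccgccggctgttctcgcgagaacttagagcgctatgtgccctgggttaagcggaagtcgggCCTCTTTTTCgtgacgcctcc
Rpl35: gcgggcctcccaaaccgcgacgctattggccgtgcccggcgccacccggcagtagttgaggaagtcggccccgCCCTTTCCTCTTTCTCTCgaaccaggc
Rpl19: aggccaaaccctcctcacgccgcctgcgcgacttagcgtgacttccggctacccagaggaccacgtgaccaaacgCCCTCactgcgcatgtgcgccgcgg
Rps27l: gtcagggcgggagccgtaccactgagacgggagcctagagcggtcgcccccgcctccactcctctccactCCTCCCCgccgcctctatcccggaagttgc
Rpl22l1: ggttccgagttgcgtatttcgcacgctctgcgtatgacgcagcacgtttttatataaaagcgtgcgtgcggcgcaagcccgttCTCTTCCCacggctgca
Rpl3l: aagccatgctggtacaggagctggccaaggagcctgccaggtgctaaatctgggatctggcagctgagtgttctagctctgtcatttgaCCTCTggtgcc
The table held a promoter for 41 of the 47 genes, each read from its first listed entry. Such a C and T tract, searched on the sense strand only, was found in 24 of them (58.5%), against 31.5% of the 10936 genes tested that had an entry. Where the C and its 4 following bases all had to lie within 10 bases of the start, the shares were 53.7% (22 genes) and 27.3%, and the tract of Rpl3l, which begins at base 10 after the start, was not among them. The dinucleotide CG occurred at a median of 21 times in the 300 bases around the start of the 41 genes and 20 times in those of all genes tested. Rpl3l had 2 in its 300 bases and 0 in the window shown, the fewest of the 41, whereas Rpl22l1 had 30. The table held no promoter for Rps4l or Rpl7.

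Of the 47 genes, 45 passed the filter on low signals (at least 3 of 6 arrays above the 40th percentile of their array), and Rpl39l and Rps16 did not. Most had higher signals in DNMTs-Tg hearts, by small amounts. Of the 45 genes, 40 (88.9%) had a difference above 0, against 50.8% of all 13634 genes tested, and the median log2 difference was 0.26, against 0.01 for all genes tested. By limma with Benjamini-Hochberg adjustment over all genes and a threshold of 0.05, 5 genes rose (11.1% of the 45, against 2.24% of all genes) and 1 fell (2.22%, against 3.15% of all genes). The 5 were Rps27l, Rps6, Rpl35, Rpl19 and Rpl7, and the 1 that fell was Rps4l. Groups did not overlap for 34 of the 45 genes (75.6%, against 34.9% of all genes), and for 31 of them the DNMTs-Tg arrays were the higher (17.3% of all genes were).

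**Figure D1:**
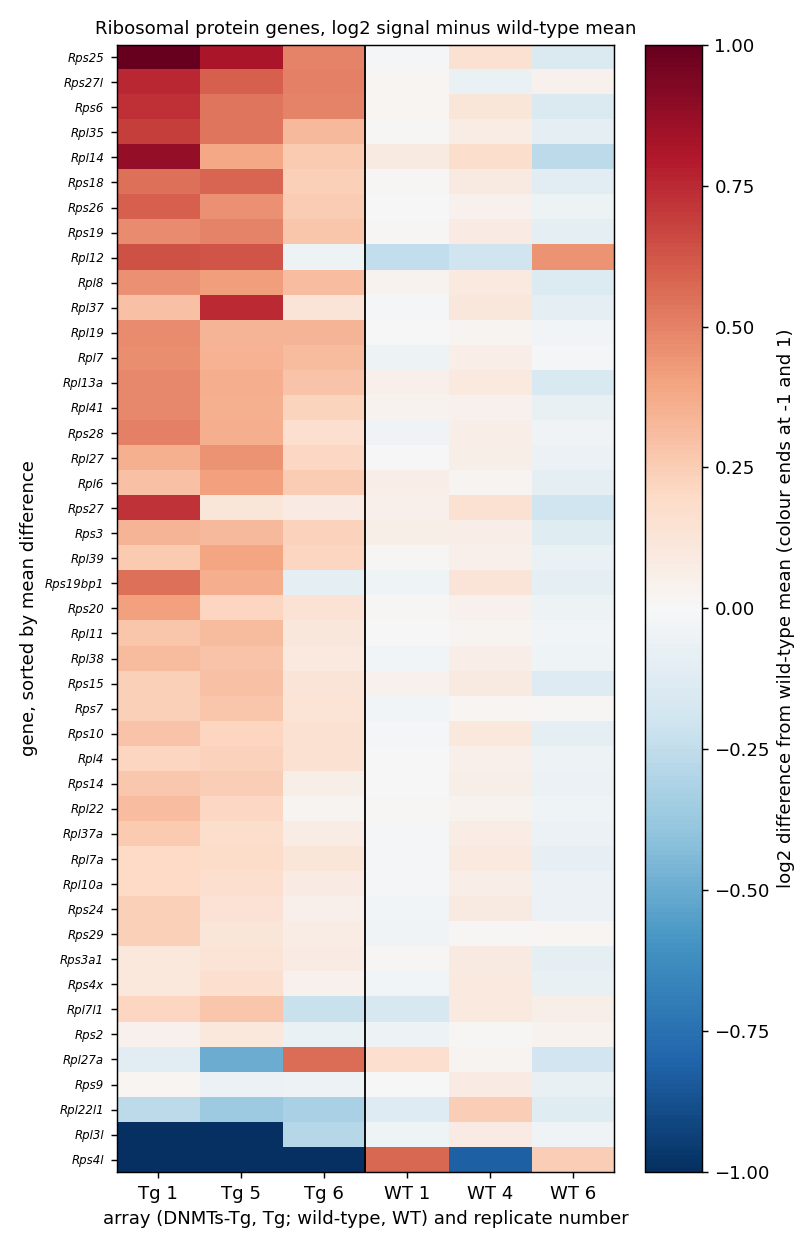
Heat map of the 45 measured ribosomal protein genes (rows, sorted by their mean difference) on the 6 arrays (columns, DNMTs-Tg replicates 1, 5 and 6 left of wild-type replicates 1, 4 and 6), with colour for the log2 signal minus the wild-type mean of the gene. Rows of the upper part are red in the DNMTs-Tg columns, and Rpl22l1, Rpl3l and Rps4l at the bottom are blue, Rps4l at a difference of -3.25.

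Setting aside the paralogues and Rps19bp1, a nucleolar binding partner of RPS19 that the symbol rule takes in, 39 of 40 core ribosomal protein genes were measured. Of these, 37 lay above 0, as did 50.8% of all genes. With no overlap of the groups, 30 were higher in DNMTs-Tg hearts, as were 17.3% of all genes. The mean difference of the core genes from the wild-type mean was 0.38, 0.31 and 0.18 (log2) in DNMTs-Tg replicates 1, 5 and 6. It lay between -0.07 and 0.07 on the wild-type arrays. The median difference of 0.29 corresponds to 1.22-fold. The highest of the 6 signals was on the array of DNMTs-Tg replicate 1 for 24 of the 39 genes, on that of replicate 5 for 13, on that of replicate 6 for 1 and on a wild-type array for 1. The lowest was on the array of wild-type replicate 6 for 33. The genes of both subunits showed this. The 20 large-subunit genes had means of 0.37, 0.32 and 0.20 in DNMTs-Tg replicates 1, 5 and 6, with a median difference of 0.33, 19 above 0 and 3 that rose. The 19 small-subunit genes had 0.40, 0.29 and 0.16, with a median of 0.22, 18 above 0 and 1 that rose. Of all genes, 2.24% rose.

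Macrophage and fibroblast markers were highest on the same array, and the lists of the other cell types were not. Macrophage markers, 13 of 14 measured, averaged 1.53 (log2, relative to the wild-type mean) on the array of DNMTs-Tg replicate 1, 0.05 on that of replicate 5 and 0.11 on that of replicate 6, against -0.13 to 0.11 in wild-type hearts, and none of the 13 lay at or below the 40th percentile on every array of a group. The 10 fibroblast markers, all measured, stood at 1.41, 0.39 and 0.19 in DNMTs-Tg hearts and at -0.21 to 0.26 in wild-type hearts. Endothelial markers (8 of 8 measured) were lowest there, at -0.26, -0.23 and 0.06 in DNMTs-Tg hearts and -0.10, -0.05 and 0.15 in wild-type hearts. Proliferation markers (7 of 8 measured) were highest in DNMTs-Tg replicate 6, at 0.25, -0.07 and 0.99 in DNMTs-Tg hearts and -0.16 to 0.24 in wild-type hearts. So were the 2 measured of 8 red blood cell markers, at 0.54, -1.19 and 1.67 in DNMTs-Tg hearts and -0.32 to 0.62 in wild-type hearts. Lymphocyte markers (6 of 8 measured) stayed between -0.09 and 0.00 in DNMTs-Tg hearts and between -0.07 and 0.09 in wild-type hearts. The 2 measured of 7 skeletal muscle markers went apart, with log2 differences of 2.19 and -0.01. Their mean stood at 1.10, 1.06 and 1.11 in DNMTs-Tg hearts and at -0.75 to 0.53 in wild-type hearts. The signal of the 3′ minus the 5′ Gapdh probe set, which follows RNA integrity, was 0.75, 0.53 and 0.71 in DNMTs-Tg hearts and 0.50, 0.40 and 0.40 in wild-type hearts. An exact permutation test gave a 2-sided p of 0.1, the lowest value possible with 3 against 3, and the Actb pair gave p = 0.8 by the same exact test. Without DNMTs-Tg replicate 1, 41 of the 45 genes lay above 0, with a median of 0.21. In that fit 8 of them rose, as did 3.28% of all genes. The part of these cell types and of RNA quality in the result was not tested.

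**Figure D2:**
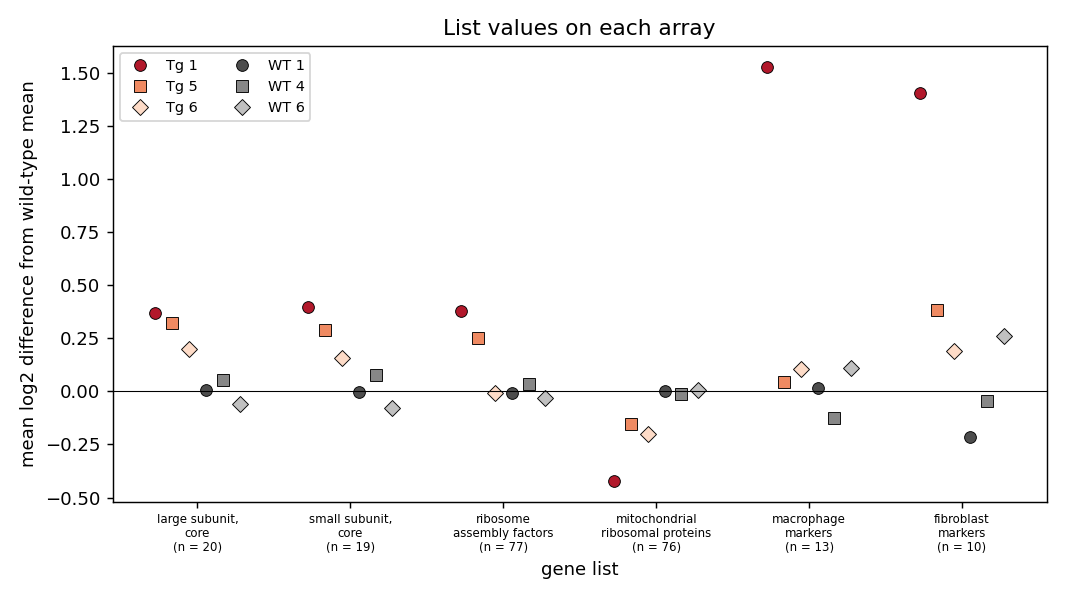
Mean log2 difference from the wild-type mean of each gene list (vertical axis) on each array, with 1 symbol per array, DNMTs-Tg arrays left of wild-type arrays within a list and the number of genes under the name. Both subunits lie above 0 in all 3 DNMTs-Tg arrays, mitochondrial ribosomal proteins lie below 0 in all 3, and macrophage markers reach 1.53 on the array of DNMTs-Tg replicate 1 alone.

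The 4 core genes that rose did so by 0.38 to 0.59 on the log2 scale. Rps6 encodes the small-subunit protein that S6 kinases phosphorylate. Its log2 signals were 9.51, 9.32 and 9.28 in DNMTs-Tg replicates 1, 5 and 6, against 8.80, 8.90 and 8.64 in wild-type replicates 1, 4 and 6. The groups lay apart, with a difference of 0.59 ± 0.12 (SE, n = 3 per group, limma, adjusted p = 0.0378). Its other probe set with that single symbol lay close to the 40th percentile and differed by 0.10, and with the mean of both the gene stood at 0.34 (adjusted p = 0.116). Rpl35, a large-subunit protein at the exit of the peptide tunnel, had 13.37, 13.22 and 13.01 in DNMTs-Tg hearts, against 12.70, 12.76 and 12.60 in wild-type hearts. DNMTs-Tg replicate 1 was the highest and no wild-type array reached the lowest of the DNMTs-Tg arrays, a difference of 0.52 ± 0.11 (SE, adjusted p = 0.0445).

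Rpl19, which encodes a large-subunit protein that contacts the small subunit, had 13.39, 13.26 and 13.26 in DNMTs-Tg hearts, against 12.93, 12.95 and 12.89 in wild-type hearts. Both groups were tight, and the difference was 0.38 ± 0.08 (SE, adjusted p = 0.0371). Rpl7, also of the large subunit, had 13.20, 13.08 and 13.05 in DNMTs-Tg hearts, against 12.68, 12.81 and 12.72 in wild-type hearts, again with no overlap (0.38 ± 0.08, SE, adjusted p = 0.0486). Each of these 4 calls was kept in 2 of the 6 fits that left out 1 array, those without DNMTs-Tg replicate 1 or 6. Without DNMTs-Tg replicate 5 or without any 1 wild-type array, 0 of the 45 genes rose by limma, while 16 to 18 were higher at an unadjusted p under 0.05, as were 8.24% to 10.9% of all genes in those fits. For Rps6 the difference then ranged from 0.52 to 0.65.

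Among the core genes that did not pass, Rps25 had the largest difference. Rps25 encodes a small-subunit protein that some viral and cellular internal ribosome entry sites need. It had 7.90, 7.29 and 6.97 in DNMTs-Tg hearts, against 6.46, 6.63 and 6.33 in wild-type hearts, so the groups lay apart but the DNMTs-Tg arrays spread over most of a log2 unit (0.91 ± 0.23, SE, adjusted p = 0.0710). It passed without DNMTs-Tg replicate 1, at 0.65 (adjusted p = 0.0460), and without replicate 6, at 1.12 (adjusted p = 0.0257). Rpl14 followed at 0.51 (adjusted p = 0.165) and Rps18 at 0.46 (adjusted p = 0.0684). In all, 26 core genes had groups that did not overlap without passing the threshold, all higher in DNMTs-Tg hearts. Their differences were 0.14 to 0.91, with adjusted p of 0.0561 to 0.268 by limma. Called or not, 17.3% of all genes were higher without overlap. The groups overlapped for 9 core genes. The lowest core gene was Rps9, at -0.03 ± 0.08 (SE, adjusted p = 0.831).

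Single probe sets gave more calls than genes did. Of the 102 probe sets 92 passed the filter and 82 lay above 0. Tested with all kept probe sets, 17 rose (1.77% of all kept probe sets did) and 1 fell (2.36% of all did), and the 17 belonged to 9 genes. For Rpl35 4 of its kept probe sets rose, by 0.48 to 0.77, for Rps27l all 3, and for Rpl7, Rpl27 and Rps18 2 each. Without the filter 10 rose and 1 fell. Of the 22 genes with several kept probe sets, 6 had probe sets that differed in sign. For Rps9 the brightest differed by -0.03 and another by 0.64 (adjusted p = 0.0690), and for Rps4x the brightest differed by 0.10 and another by -0.36 (adjusted p = 0.145). Of the 10 kept probe sets with a mean signal below 6, 5 lay above 0, against 77 of the 82 at 6 or more. Identifiers of 70 of the 102 probe sets carry a suffix for probes that may match several transcripts. Of the 5 genes that rose, Rpl19 and Rps6 were read by a probe set without one.

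The signals were near the top of the scale, and 32 of the 45 genes had a mean above 12, where the highest value of any probe set was 14.74. The 370 other genes with a mean above 12 lay on the other side, with 140 above 0 and a median of -0.10. Of these, 10 rose and 5 fell. Of the 31 core genes above 12, 30 lay above 0, with a median of 0.23.

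Of the 5 measured paralogues 2 lay above 0, 1 rose and 1 fell. Rps4l, a relative of the gene for small-subunit protein RPS4X that RefSeq lists as a transcribed pseudogene, had the largest difference of the group. Its log2 signals were 4.48, 4.69 and 4.52 in DNMTs-Tg replicates 1, 5 and 6, against 8.39, 7.00 and 8.06 in wild-type replicates 1, 4 and 6. All DNMTs-Tg values lay below the 40th percentile of their array (4.64 to 4.72) and the wild-type values well above it, so it passed the filter only through the wild-type arrays. Its lowest wild-type value was on the array with Xist. The difference was -3.25 ± 0.33 (SE, limma, adjusted p = 0.00458), which makes it at least 8.74-fold lower against that percentile. The call was kept without any 1 array, with a difference of -3.66 when wild-type replicate 4 was left out and -2.97 when replicate 1 was, and also with no filter. One probe set, with no suffix for shared probes, measures the gene.

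Rps4x, the X-linked gene for the protein itself, had 13.27, 13.34 and 13.21 in DNMTs-Tg hearts, against 13.15, 13.27 and 13.10 in wild-type hearts. The groups overlapped (0.10 ± 0.08, SE, adjusted p = 0.458). The within-array difference, Rps4l minus Rps4x, stood at -3.36 for DNMTs-Tg minus wild-type hearts, and its groups did not overlap (exact permutation test, 2-sided p = 0.1, adjusted p = 0.2 over 4 paralogue pairs). The gap in Rps4l far exceeds the range of Rps4x, so this outcome followed from the values above and is not independent evidence. Since Rps4l was dim in DNMTs-Tg hearts, that size depends on signals with no measured background. With Rps4l set to the 40th percentile there, the difference was -3.23, so relative to Rps4x it was at least 9.39-fold lower against that percentile. Of the 8 measured genes nearest to Rps4l on its chromosome, 4 on each side, Caprin2 was the 1 past the threshold (-0.87, adjusted p = 0.0409), where 3.15% of all genes fell and 2.24% rose. The adjacent measured genes were Tmtc1 at 0.52 (adjusted p = 0.125) and Ipo8 at -0.15 (adjusted p = 0.583). These neighbours were chosen for their place, after the values of Rps4l were seen.

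Rpl3l, the paralogue of Rpl3 in heart and skeletal muscle, had 8.90, 10.31 and 11.03 in DNMTs-Tg hearts, against 11.27, 11.39 and 11.27 in wild-type hearts. Every DNMTs-Tg array was lower than every wild-type array, and the DNMTs-Tg arrays spread widely, with replicate 6 close to the wild-type arrays and replicate 1 far below them. The difference was -1.23 ± 0.48 (SE, adjusted p = 0.162), and the SD was 1.08 in DNMTs-Tg and 0.07 in wild-type hearts (n = 3 each). Without DNMTs-Tg replicate 1 the difference was -0.64 (adjusted p = 0.0966), and without replicate 6 it was -1.71 and was called (adjusted p = 0.0387). No probe set with the single symbol Rpl3 was in the table used, so the pair could not be compared.

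Rps27l, the paralogue of Rps27 that p53 induces, had the smallest p of the genes that rose. It had 12.58, 12.41 and 12.32 in DNMTs-Tg hearts, against 11.84, 11.75 and 11.87 in wild-type hearts. The groups lay far apart for their spread (0.62 ± 0.10, SE, adjusted p = 0.0179), and its 3 probe sets differed by 0.59 to 0.67. All 3 carry a suffix for probes that may match several transcripts, so they may not read Rps27l alone. The call was kept in 2 of the 6 fits with 1 array left out, with differences of 0.55 to 0.68 over all 6. Rps27 differed by 0.31 ± 0.20 (SE, adjusted p = 0.361). Its mean signals, 6.32 in DNMTs-Tg and 6.01 in wild-type hearts, were low for a ribosomal protein gene. The within-array difference, Rps27l minus Rps27, was 0.31 higher in DNMTs-Tg hearts (exact permutation test, 2-sided p = 0.2).

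Rpl22l1, a paralogue of Rpl22 whose mRNA the RPL22 protein represses in mice, had 10.89, 10.78 and 10.82 in DNMTs-Tg hearts, against 11.02, 11.40 and 11.03 in wild-type hearts. The groups did not overlap, and wild-type replicate 4 was the highest (-0.32 ± 0.12, SE, adjusted p = 0.166). Without that array the difference was -0.19 (adjusted p = 0.390). Rpl22 differed by 0.18 ± 0.09 (SE, adjusted p = 0.266), and the within-array difference, Rpl22l1 minus Rpl22, stood at -0.50 for DNMTs-Tg minus wild-type hearts (exact permutation test, 2-sided p = 0.1, adjusted p = 0.2). Rpl7l1, a nucleolar relative of Rpl7, differed by 0.09 ± 0.16 (SE, adjusted p = 0.755), and its 3 probe sets by 0.09, 0.55 and 0.29. Relative to Rpl7 it stood at -0.29 (exact permutation test, 2-sided p = 0.2, adjusted p = 0.2).

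**Figure D3:**
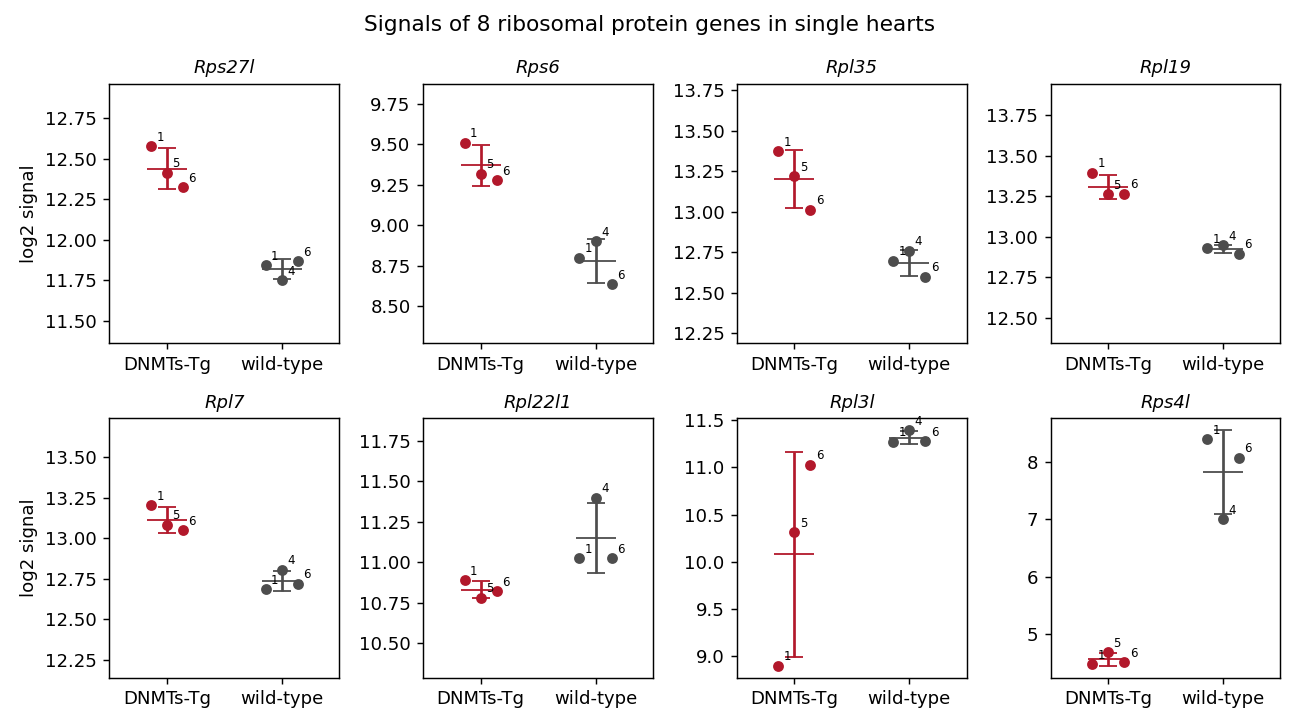
Log2 signals of 8 ribosomal protein genes in DNMTs-Tg (left) and wild-type hearts (right), with 1 numbered point per mouse and bars for the mean and SD (n = 3 each), on axes that differ between panels and do not start at 0. Rpl3l runs between 8.90 and 11.03 in DNMTs-Tg hearts, while Rps4l is between 4.48 and 4.69 there.

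Cytosolic ribosomal proteins with other symbols lay on the same side, with 4 of 4 measured members above 0. Of these Rpsa, a small-subunit protein, rose. It had 13.22, 13.13 and 12.92 in DNMTs-Tg hearts, against 12.50, 12.60 and 12.52 in wild-type hearts (0.55 ± 0.10, SE, adjusted p = 0.0281). The other 3 did not pass. Rplp0, a protein of the large-subunit stalk, differed by 0.27 (adjusted p = 0.166), and Fau, which encodes RPS30 fused to a ubiquitin-like protein, by 0.27 (adjusted p = 0.125). Rplp2, another stalk protein, differed by 0.12 (adjusted p = 0.412).

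In each list of genes that build, regulate or work with ribosomes 0 to 2 rose, where 2.24% of all genes rose and 3.15% fell. Of 77 measured ribosome assembly factors 2 rose and 0 fell, with 61 above 0 and a median of 0.18. Their mean was 0.38, 0.25 and -0.01 in DNMTs-Tg replicates 1, 5 and 6, against -0.03 to 0.04 in wild-type hearts. Replicate 6 thus lay within the wild-type range. The 2 that rose were Rrs1, which brings the 5S RNA particle into the large subunit (0.56, adjusted p = 0.0348), and Ftsj3, a methyltransferase of the pre-ribosomal RNA pathway (1.03, adjusted p = 0.0380). Of 16 genes of RNA polymerase I and its factors 1 rose and 1 fell, with a median of 0.12. Taf1d, a subunit of the factor that selects the ribosomal DNA promoter, rose by 0.88 (adjusted p = 0.0341), and Polr2e, a subunit shared by all 3 nuclear RNA polymerases, fell by 0.60 (adjusted p = 0.0436).

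Among 33 measured initiation factors, 1 rose and 0 fell, with 25 above 0 and a median of 0.16. It was Pabpc1, the poly(A)-binding protein gene (0.53, adjusted p = 0.0422). The mean of the list was 0.25, 0.155 and 0.02 in DNMTs-Tg replicates 1, 5 and 6, against -0.03 to 0.03 in wild-type hearts. The list of elongation factors, with 10 genes measured, also held the release factor genes Gspt1 and Etf1 and the kinase gene Eef2k. Of the 10, 0 passed by limma and 3 had an unadjusted p under 0.05, as did 26.0% of all genes. Eef2, the translocase, came closest at 0.46 (adjusted p = 0.0677), followed by the release factor gene Etf1 at 0.44 (adjusted p = 0.140). Of 20 genes of the mTORC1 pathway and regulators of TOP mRNAs 1 rose and 0 fell, with a median of 0.05. Differences in this list ran from -0.43 to 2.25, and the largest did not pass. Eif4ebp1, whose protein holds the cap-binding factor eIF4E inactive until mTORC1 phosphorylates it, rose by 0.63 (adjusted p = 0.0417). Ribosome quality control genes, 15 of 17 measured, all lay above 0 with a median of 0.26, and 0 passed by limma while 6 had an unadjusted p under 0.05, against the same 26.0% of all genes. Hbs1l, a ribosome rescue factor, differed by 0.39 (adjusted p = 0.0566) and Mdm2, which RPL5 and RPL11 bind, by 0.57 (adjusted p = 0.0683).

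Mitochondrial ribosomal proteins, which are encoded in the nucleus and act in the separate ribosome of mitochondria, lay on the other side. Of 76 measured genes 14 were above 0, 0 rose and 8 fell, with a median of -0.23. Over all genes, 50.8% lay above 0, 2.24% rose and 3.15% fell. Their mean stood at -0.42 in DNMTs-Tg replicate 1, -0.15 in replicate 5 and -0.20 in replicate 6, against -0.01 to 0.01 in wild-type hearts. The 8 included Mrps2, which fell by 1.12 (adjusted p = 0.00892), and Mrpl48, which fell by 0.89 (adjusted p = 0.00731), and both were chosen after their values were seen. The difference between the 2 kinds of ribosomal protein was not tested.

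**Figure D4:**
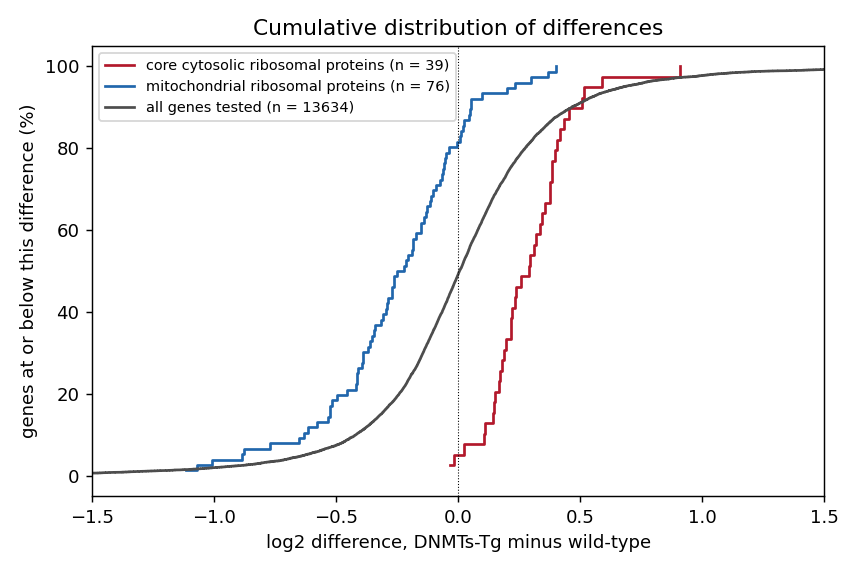
Cumulative distribution of the log2 difference between DNMTs-Tg and wild-type hearts (horizontal axis) for 39 core cytosolic ribosomal proteins, 76 mitochondrial ribosomal proteins and all 13634 genes tested, as the percent of genes at or below each difference. The medians are 0.29, -0.23 and 0.01, and the horizontal axis is shortened, which leaves some of all genes outside.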

How the data were processed

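Total RNA of frozen hearts was labelled with biotin by in vitro transcription after 1 cycle of cDNA synthesis and hybridised to Affymetrix arrays, per the labels' protocols. The authors deposited log2 signals, 1 per probe set and array, between 2.06 and 14.74 with array medians of 5.28 to 5.33. No source used here names the background correction or normalization, and no detection calls were used. Groups, replicate numbers and age came from the labels. Symbols came from the platform annotation, updated by gene identifier to GRCm38.p6. All 102 probe sets matched.

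Values were analysed as deposited. The kept probe set with the highest mean stood for a gene. Differences were tested 2-sided across all genes with limma 3.58.1 in R 4.3.3 (lmFit, eBayes with a trend), with Benjamini-Hochberg adjustment and a threshold of 0.05. The steps were tested on simulated data. The number of arrays limits the precision. Genes named are the members past the threshold, paralogues with their parents, the 3 highest and 3 lowest of the other members, and of other lists the members past the threshold or otherwise the 2 with the smallest p. Rplp0, Rplp2, Fau, Mrps2, Mrpl48 and the neighbours of Rps4l fall outside this rule and were named after their values were seen. List values are means over measured members. Probe sets with several symbols were left out. Alternatives covered normalization, filter, probe set choice, variance model, array weights, the label number as a block, the threshold and each array left out. The members and lists were chosen with earlier results of these data known.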

Additional observations from a re-analysis of the deposited data

Results flagged for a closer look

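Ribosomal protein probe sets outside the comparisons above carried the same kind of signal. The table holds 109 probe sets that carry several symbols, at least 1 of them of a ribosomal protein gene, and for that reason they stand for no gene here. Of the 98 that passed the filter, 96 lay above 0, with a median log2 difference of 0.30 and a range of -0.06 to 0.73. In 80 of the 98 every DNMTs-Tg array was higher than every wild-type array, and in 0 every one was lower. Among genes, each read by 1 probe set, 17.3% were higher without overlap. The share over all kept probe sets was not computed. Tested by limma with all kept probe sets, 11 of the 98 rose and 0 fell, where 1.77% of all kept probe sets rose and 2.36% fell. They may read the same transcripts as the probe sets used above, and they come from the same arrays.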

How the results depend on the processing

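The median difference of the ribosomal protein genes stayed between 0.21 and 0.31 under every setting tried, while the median of all genes stayed between -0.02 and 0.03. The share above 0 was smaller where probe sets with a suffix for shared probes were left out. Then 13 of 19 genes lay above 0, with a median of 0.27, against 40 of 45 as reported. The number that rose, 5 as reported, was less stable. It was 3 with a common median, with no filter and with cyclic loess normalization (added after seeing the data), 2 without a variance trend, 1 where probe sets with a suffix for shared probes were left out (19 of the genes then remained), 17 when probe sets were counted, 15 at an adjusted p of 0.1 and 35 with array weights, whose estimation did not converge. With 1 array left out it ranged from 0 to 13. The number that fell, 1 as reported, was 3 with array weights and ranged from 1 to 2 with 1 array left out. With the label number as a replicate block, 0 rose and 0 fell by limma (5 and 1 at an unadjusted p under 0.05), and Rps4l stood at -3.73 (adjusted p = 0.0627). The fit has 1 residual degree of freedom. Deviations of same-numbered arrays from their group means correlated over genes at -0.05 for number 1 and -0.08 for number 6. With so few arrays, these correlations cannot show whether a number stands for a shared litter or batch. Rps4l kept its call under the other settings. Over all genes, the 306 rises and 429 falls ranged from 44 and 79 (without wild-type replicate 1) to 815 and 789 (without DNMTs-Tg replicate 6), and were 483 and 646 for probe sets, 768 and 887 at an adjusted p of 0.1, 2328 and 2494 with array weights and 1 and 0 with the block. The differences of Rpl22l1, Rpl7l1 and Rps27l from their parents kept their sign under the settings run. The causes of these changes were not tested. Without detection calls, dim signals such as that of Rps4l in DNMTs-Tg hearts have no measured background.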
